A study of Polypedilum vanderplanki with 24 samples.

Results

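The genes of the proteasome, the protease complex that degrades ubiquitin-marked proteins, were taken from the annotated expression table of Pv11 cells. A gene was a member if the table gave it the Gene Ontology term of the proteasome core complex or if the word proteasome stood in its BLAST description, and 37 of the 17782 genes met this rule. The ontology term picked 16 of them and the description 33, with 12 picked by both, 4 by the term alone and 21 by the description alone. By their descriptions and protein domains, 16 genes were subunits of the 20S core (8 of the alpha and 8 of the beta ring), 17 were subunits of the 19S regulatory particle and 4 were neither. The 19S genes counted below are these 17 alone. The subunits Rpn8 and Rpn13 carry a proteasome domain but did not meet the rule, and their levels are given at the end.

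Pv11 is a cell line from the sleeping chironomid *Polypedilum vanderplanki* that survives drying after incubation in concentrated trehalose. Poly(A) RNA of 4 lines was sequenced at T0, before the incubation, and at T48, when it had lasted 48 h, and 24 libraries were made, 3 for every combination of line and time (8 groups). In the HSF1-rescue cells (*Hsf1*-/-; *Hsf1*-HaloTag/BlaR) a Flag-tagged *Hsf1* with HaloTag and the blasticidin resistance gene BlaR had been inserted into the *g7775* gene of the knockout, and the control cells (*Hsf1*-/-; HaloTag/BlaR) had HaloTag and BlaR alone at the same place. The knockout cells (*Hsf1*-/-) carried an AcGFP1 and zeocin resistance cassette in exon 1 of both *Hsf1* copies, and WT was the unmodified line. The knockout cassette was therefore shared by the rescue, control and knockout cells. Each of these lines was grown from a sorted single cell, so every line stands for 1 clone, whereas no cloning of WT is described.

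The 20S core is a barrel of stacked rings. The outer rings of alpha subunits form the gate through which a substrate enters, and the inner rings of beta subunits hold the proteolytic sites. The 19S particle sits on the barrel end, where a ring of ATPases (Rpt subunits) unfolds the substrate and the non-ATPase subunits (Rpn) hold the ubiquitin receptors, the deubiquitinase and the scaffold. In yeast, flies and mammals the subunits are made together and their genes are coordinately transcribed. HSF1 is the transcription factor of the heat shock response and binds heat shock elements (HSEs), inverted repeats of GAA.

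Expression is given in TPM, a share of all transcripts corrected for gene length, so that levels of different genes can be compared within a group. The deposited values are the means of the 3 libraries of a group, so replicate error and tests between groups were not computed here, and every difference below is a difference between group means. Ratios are on the scale log2(TPM + 1), for genes with at least 1 TPM in either group, and a 2-fold difference is a log2 ratio of 1 or more in size. TPM is a share of a total, and the log2 ratio of T48 over T0 had a median over all genes of 0.08 in HSF1-rescue cells, 0.35 in control cells, 0.30 in knockout cells and 0.53 in WT, and -0.34 for HSF1-rescue over control cells at T48. Values called scaled were divided by median-of-ratios factors, which were between 0.778 (WT at T0) and 1.23 (control cells at T48) and brought these medians to between -0.01 and 0. The gene taken as *Hsf1* (*g3611*) was near 0 TPM in every group. It had 0.139 and 0.00892 TPM (T48 and T0) in HSF1-rescue cells and 0.197 and 0.0110 TPM in control cells. In knockout cells it had 0.248 and 0.0271 TPM, and in WT 0.307 and 0.0863 TPM. By western blotting the paper found no HSF1 protein in knockout cells and its re-expression in HSF1-rescue but not control cells, and it checked the insertions by genomic PCR. The TPM values of *g3611* do not show this difference, and why was not tested. The lines are therefore taken from their labels. Fewer expressing cells and less RNA per cell cannot be told apart in such bulk values.

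Transcripts of the proteasome were abundant, and the core was more abundant than the regulatory particle in every group. The 15 core genes above 1 TPM had a median at the 94.9th percentile of mean TPM among the 8064 genes of at least 1 TPM, and the 17 genes of the 19S particle at the 90.4th. Of the 37 members, 35 were at or above 1 TPM in all 8 groups. The other two were *g4781*, a second gene with a beta type-7 domain, which had 0.0411 TPM in control cells at T0 and was listed at 0 in all other groups, and *g10302*, the COP9 signalosome subunit 3 gene, which was listed at 0 in all groups.

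The summed level of the core genes was 5443 TPM at T48 and 5192 TPM at T0 in HSF1-rescue cells, against 3174 and 6027 TPM in control cells. In knockout cells it was 3965 TPM at T48 and 7703 TPM at T0, against 2795 and 2531 TPM in WT. At the low end this was 0.253% of all transcripts, in WT at T0, and at the high end 0.771%, in knockout cells at T0. The 19S genes summed to 3028 and 2974 TPM (T48 and T0) in HSF1-rescue cells, against 1706 and 3451 TPM in control cells, and to 1983 and 3922 TPM in knockout cells, against 1804 and 1472 TPM in WT. Both particles thus had lower levels at T48 than at T0 in the lines without HSF1, and levels closer to each other at the 2 times in HSF1-rescue cells and in WT. After scaling, the core sum was lowest in WT at T48 (2392 TPM, against 3251 TPM at T0) and still highest in knockout cells at T0.

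**Figure D1:**
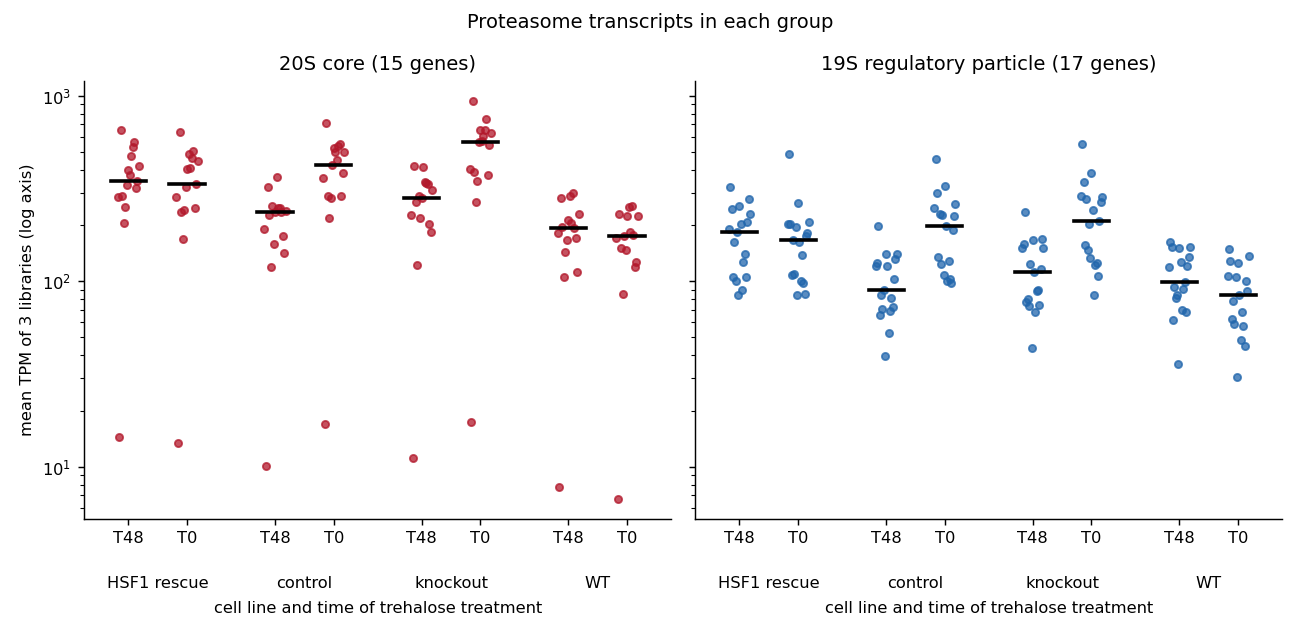
Mean TPM (log axis) of the 15 core genes (left) and the 17 genes of the 19S particle (right) in each group, T48 left of T0 for each line, with 1 point a gene and a bar at the median of the genes. As deposited, the core median was highest in knockout cells at T0 (566 TPM) and lowest in WT at T0 (175 TPM), and the low point in every core group is the second alpha type-1 gene. After scaling, the lowest group was WT at T48 in 11 core genes, control cells at T48 in 4 and WT at T0 in 0.

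In the alpha ring, alpha type-2 was the most abundant of the 7 subunit types and alpha type-4 the least in all 8 groups. Values are given for T48 and then T0. Alpha type-2 (*g5793*, chromosome 2, 11974840 to 11975744, minus strand) had 652 and 635 TPM in HSF1-rescue cells, against 324 and 716 TPM in control cells, and 419.8 and 937 TPM in knockout cells, against 279.7 and 231 TPM in WT cells. Alpha type-4 (*g4076*), a subunit of the ring that closes the substrate gate, had 205 and 169 TPM in HSF1-rescue cells, against 119.9 and 218 TPM in control cells, and 122 and 267 TPM in knockout cells, against 105 and 85.1 TPM in WT cells. In both genes the T48 level of HSF1-rescue cells was close to their T0 level, while control and knockout cells were near 2-fold lower at T48 than at T0.

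Alpha type-6 (*g8196*, chromosome 2, 29033073 to 29033953, minus strand) had 331 and 323 TPM in HSF1-rescue cells, against 159 and 422 TPM in control cells, and 219.6 and 566 TPM in knockout cells, against 167 and 148 TPM in WT cells. Alpha type-7 (*g13240*) had 397 and 404 TPM in HSF1-rescue cells, against 237 and 522 TPM in control cells, and 282 and 656 TPM in knockout cells, against 214 and 225 TPM in WT cells. Alpha type-6 had the widest gap between the times in control cells among the alpha genes, with a log2 ratio of T48 over T0 of -1.40, followed by alpha types 2 and 7 (-1.14 each). The alpha type-1 gene *g13361* had 286 and 283 TPM in HSF1-rescue cells, against 191 and 359.7 TPM in control cells, and 227 and 404 TPM in knockout cells, against 181 and 171 TPM in WT cells. Its second gene *g9583*, named by its domain alone, was far lower, with 14.4 and 13.3 TPM in HSF1-rescue cells, against 10.1 and 17.0 TPM in control cells, and 11.2 and 17.5 TPM in knockout cells, against 7.76 and 6.70 TPM in WT cells. As deposited, the second gene followed the first in order across the groups, with its highest level in knockout cells at T0 and its lowest in WT at T0. Reads that fit more than 1 gene were not counted, so the levels of this pair are uncertain.

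Alpha type-3 (*g11495*) had 287 and 235 TPM in HSF1-rescue cells, against 227 and 289 TPM in control cells, and 268 and 386 TPM in knockout cells, against 197 and 151 TPM in WT cells. Alpha type-5 (*g5573*, chromosome 2, 10347358 to 10348952, minus strand) had 252 and 241 TPM in HSF1-rescue cells, against 255 and 282 TPM in control cells, and 288 and 347 TPM in knockout cells, against 143 and 175 TPM in WT cells. As deposited, the level of alpha type-5 at T48 was not higher in HSF1-rescue than in control cells (log2 ratio -0.02, and 0.34 after scaling), and T48 over T0 gave a log2 ratio of -0.14 in control cells and -0.27 in knockout cells. The gene model of *g5573* also carries a transmembrane protein 242 domain in front of the proteasome domain, and whether the reads come from 1 transcript or from more was not tested.

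In the beta ring the proteolytic subunits are beta type-5 (chymotrypsin-like), beta type-6 (caspase-like) and beta type-7 (trypsin-like), and beta types 1 to 4 are structural. Beta type-5 (*g11293*, chromosome 3, 15467315 to 15468246, minus strand) had 318.6 and 248 TPM in HSF1-rescue cells, against 175 and 287 TPM in control cells, and 204 and 375 TPM in knockout cells, against 172 and 119 TPM in WT cells. Beta type-6 (*g7161*, chromosome 2, 21627737 to 21628517, plus strand) had 345 and 335 TPM in HSF1-rescue cells, against 141 and 383 TPM in control cells, and 185 and 543 TPM in knockout cells, against 112 and 127 TPM in WT cells. Beta type-7 (*g8087*, chromosome 2, 28534620 to 28535526, plus strand) had 419.7 and 447 TPM in HSF1-rescue cells, against 238 and 499.5 TPM in control cells, and 311 and 633 TPM in knockout cells, against 230.5 and 224 TPM in WT cells. Beta type-6 had the widest gap between the times of all core genes in the lines without HSF1, with log2 ratios of -1.44 in control and -1.55 in knockout cells, and a ratio of 0.04 in HSF1-rescue cells.

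Of the structural beta subunits, beta type-4 (*g7764*) had 560.2 and 503 TPM in HSF1-rescue cells, against 236 and 549 TPM in control cells, and 334 and 749 TPM in knockout cells, against 194 and 178 TPM in WT cells. Beta type-3 (*g11646*) had 528 and 462 TPM in HSF1-rescue cells, against 247 and 538 TPM in control cells, and 338 and 651 TPM in knockout cells, against 298 and 253 TPM in WT cells. Beta type-2 (*g4362*) had 474 and 409.5 TPM in HSF1-rescue cells, against 247 and 450.0 TPM in control cells, and 341 and 604 TPM in knockout cells, against 206 and 184 TPM in WT cells. All of these 3 had the lower level at T48 in control and knockout cells and the higher level at T48 in HSF1-rescue cells, and in WT they were higher at T48 as deposited but lower after scaling. Beta type-1 (*g7711*, chromosome 2, 25414107 to 25414886, minus strand) had 373 and 483 TPM in HSF1-rescue cells, against 367 and 495 TPM in control cells, and 415 and 569 TPM in knockout cells, against 289 and 252 TPM in WT cells. It was the exception of the ring, with nearly the same level at T48 in HSF1-rescue and control cells as deposited (log2 ratio 0.02, and 0.39 after scaling). Its log2 ratios of T48 over T0 were -0.37 in HSF1-rescue cells and -0.43 in control cells (-0.46 and -0.81 after scaling).

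Among the 19S genes, Rpt2 (*g1602*, 26S regulatory subunit 4, chromosome 1, 12086169 to 12087914, minus strand), an ATPase of the ring whose tail opens the core gate in yeast, was the most abundant by its mean over the 8 groups, although Rpt3, Rpn7 and Rpn11 were above it in control and knockout cells at T48. It had 321 and 488 TPM in HSF1-rescue cells, against 126 and 453 TPM in control cells, and 159 and 546 TPM in knockout cells, against 163 and 148 TPM in WT cells. It was the gene with the widest gap between the times in control cells (-1.84 on the log2 scale), and the gene of the particle that was lowest at T48 relative to T0 in HSF1-rescue cells as well (-0.60). Rpn10 (*g12937*, chromosome 3, 27009648 to 27011251, minus strand), a ubiquitin receptor, was the least abundant by the same mean, although Rpn3, Rpn5 and the first Rpn2 gene were below it in control and knockout cells at T0. It had 84.1 and 83.8 TPM in HSF1-rescue cells, against 39.6 and 108 TPM in control cells, and 43.7 and 133 TPM in knockout cells, against 35.9 and 30.3 TPM in WT cells.

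The ATPase Rpt5 (*g2793*) had 163 and 167 TPM in HSF1-rescue cells, against 84.3 and 229 TPM in control cells, and 80.1 and 279 TPM in knockout cells, against 93.2 and 78.6 TPM in WT cells, and its log2 ratio of T48 over T0 in knockout cells, -1.79, was the lowest of the particle. The ATPase Rpt3 (*g11790*) had 246 and 204 TPM in HSF1-rescue cells, against 199 and 299 TPM in control cells, and 237 and 342 TPM in knockout cells, against 153 and 129 TPM in WT cells, which gave the smallest ratio at T48 between HSF1-rescue and control cells among the 19S genes (0.30). The ring therefore held both ends of the range, with a ratio of 1.34 for Rpt2.

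Rpn7 and Rpn3, scaffold subunits of the 19S lid, had the highest ratios of T48 over T0 of the particle in HSF1-rescue cells and in WT. Rpn7 (*g805*) had 278 and 182 TPM in HSF1-rescue cells, against 132 and 225 TPM in control cells, and 169 and 268 TPM in knockout cells, against 135 and 88.2 TPM in WT cells, which is a log2 ratio of T48 over T0 of 0.61 in HSF1-rescue cells. Rpn3 (*g4920*, chromosome 2, 5963398 to 5965772, minus strand) had 141 and 98.4 TPM in HSF1-rescue cells, against 81.5 and 102 TPM in control cells, and 89.7 and 125 TPM in knockout cells, against 98.8 and 57.0 TPM in WT cells, with a ratio of 0.78 in WT. Rpn1 (*g3380*), the base subunit that docks ubiquitin shuttle proteins, had 184 and 195 TPM in HSF1-rescue cells, against 89.8 and 228 TPM in control cells, and 124 and 203 TPM in knockout cells, against 84.4 and 105 TPM in WT cells and was the 19S gene with the lowest ratio of T48 over T0 in WT (-0.32). Of Rpn2, the other large base scaffold, 2 gene models lie on the same strand of chromosome 3, *g10380* from 9330528 to 9338812 and *g10382* from 9347013 to 9348435. The first had 89.7 and 100.3 TPM in HSF1-rescue cells, against 52.4 and 99.6 TPM in control cells, and 68.5 and 84.4 TPM in knockout cells, against 69.6 and 48.4 TPM in WT cells. The second, named here because it adjoins the first, had 126 and 138 TPM in HSF1-rescue cells, against 69.5 and 129 TPM in control cells, and 88.6 and 123 TPM in knockout cells, against 90.4 and 67.8 TPM in WT cells, and whether they are 2 genes or pieces of 1 cannot be told apart from the table. The other 8 genes of the particle had between 44.5 TPM (Rpn5 in WT at T0) and 384 TPM (the deubiquitinase Rpn11 in knockout cells at T0).

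The 3 expressed members outside both particles were unlike each other in level. Activator complex subunit 3 (*g14060*), known in mammals as PA28 gamma and a cap of the core that works without ATP, had 194 and 256 TPM in HSF1-rescue cells, against 169 and 269 TPM in control cells, and 205 and 328 TPM in knockout cells, against 164 and 159 TPM in WT cells. Activator complex subunit 4 (*g2411*, PA200 in mammals) had 26.4 and 17.5 TPM in HSF1-rescue cells, against 14.9 and 18.1 TPM in control cells, and 16.8 and 15.9 TPM in knockout cells, against 18.1 and 13.0 TPM in WT cells. The homolog of ECM29 (*g15004*), a protein that binds the assembled proteasome in yeast, had 10.3 and 9.75 TPM in HSF1-rescue cells, against 8.79 and 12.7 TPM in control cells, and 7.47 and 9.94 TPM in knockout cells, against 7.09 and 9.71 TPM in WT cells. Their log2 ratios of T48 over T0 in control cells were -0.67 for activator subunit 3, -0.26 for activator subunit 4 and -0.48 for ECM29, none of them 2-fold as deposited. After scaling, activator subunit 3 was 2-fold lower (-1.04) and the others were not.

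Over 48 h in trehalose, the proteasome genes were level in HSF1-rescue cells and lower in control cells. In HSF1-rescue cells the core genes had a median ratio (T48 over T0, log2) of 0.06, where 12 of 15 genes were higher at T48, and the 19S genes one of -0.03, where 8 of 17 were higher, beside 54.9% higher over all 8162 genes. No member reached 2-fold in that line, where 11.5% of all genes were 2-fold higher and 6.70% 2-fold lower. After scaling, 7 of 15 core genes and 7 of 17 genes of the 19S particle were higher (49.8% of all genes), with medians of -0.02 and -0.12.

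In control cells all 15 core and all 17 19S genes were lower at T48, beside 34.2% of all 8330 genes. Their medians were -0.91 for the core and -0.89 for the 19S particle, beside 0.35 over all genes. Of the 35 expressed members 14 were 2-fold lower, 7 of them core and 7 of the 19S particle, beside 8.25% of all genes. Knockout cells gave nearly the same values, with medians of -0.94 for the core and -0.91 for the 19S particle, all 32 genes lower (36.7% of all 8337 genes) and 13 of 35 members 2-fold lower (8.26% of all genes). With the scaled values the 2-fold lower members were 27 of 35 in control cells and 22 of 35 in knockout cells, beside 14.0% of all genes in each line. The widest ranges were those of the 19S genes, from -1.84 for Rpt2 to -0.32 for Rpn3 in control cells. The core ran from -1.44 for beta type-6 to -0.14 for alpha type-5. The ranges of the 2 particles overlapped.

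**Figure D2:**
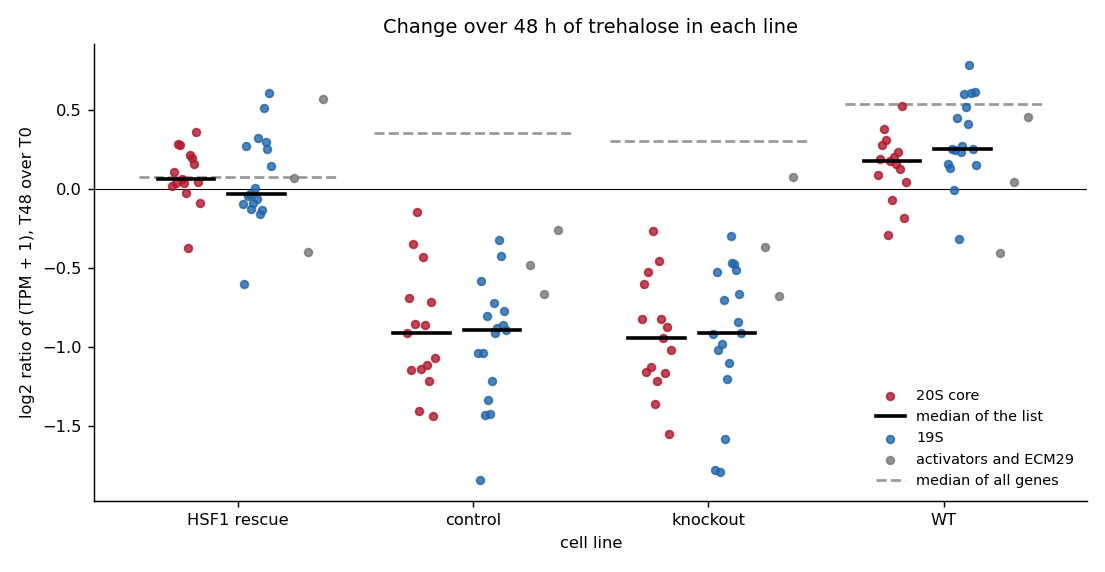
Log2 ratio of (TPM + 1) at T48 over T0 in each line, with 1 point a gene, red for the core, blue for the 19S particle and grey for the 2 activators and ECM29. Black bars are the medians of the core and 19S genes, and dashed lines the median over all genes, which lay above both black bars in every line, at 0.08 in HSF1-rescue cells, 0.35 in control cells, 0.30 in knockout cells and 0.53 in WT.

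WT differed from both of these patterns according to the scale. As deposited, 12 of 15 core genes and 15 of 17 19S genes were higher at T48, beside 76.7% of all 8522 genes, with medians of 0.18 and 0.25, but after scaling the medians turned to -0.40 and -0.33 and 0 of 15 core genes and 4 of 17 19S genes were higher (49.2% of all genes). No member was 2-fold different between the times in WT on either scale, where 25.7% of all genes were 2-fold higher and 4.61% 2-fold lower as deposited, and 12.6% and 11.0% after scaling.

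The change over 48 h was therefore compared gene by gene between HSF1-rescue and control cells, as a difference of their log2 ratios chosen after the values had been seen. The difference was positive in all 15 core and all 17 19S genes, beside 36.9% of all 8606 genes. It had a median of 1.07 in the core and 1.04 in the 19S particle, beside -0.23 over all genes, and was at least 1 in 9 of 15 core and 9 of 17 19S genes (5.02% of all genes). After scaling, the medians were 1.37 and 1.33 beside 0.04 over all genes. Beta type-6 (1.48), alpha type-6 (1.44), Rpn10 (1.43) and Rpt5 (1.40) had the highest differences, and beta type-1 (0.06), alpha type-5 (0.21) and alpha type-3 (0.63) the lowest. All 3 of the lowest were core genes, while none of the 17 19S members was under 0.68. Outside the rule, the 19S subunit Rpn8 (*g3693*) had log2 ratios of T48 over T0 of 0.37 in HSF1-rescue and 0.21 in control cells. As deposited it was thus higher at T48 in control cells, unlike the 17, but after scaling it was lower there, as they were. Rpn13 (*g2060*), also outside the rule, had 0.14 and -1.13. Knockout cells and WT share no libraries with HSF1-rescue and control cells. Both of the latter lines were derived from the knockout cells, however, so the pairs of lines are not independent. The difference between the changes in knockout cells and WT had medians of -1.14 in the core and -1.12 in the 19S particle, beside -0.22 over all genes. It was negative in 14 of 15 core genes, all but alpha type-5, and in 17 of 17 19S genes, beside 61.3% of all 8778 genes.

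**Figure D3:**
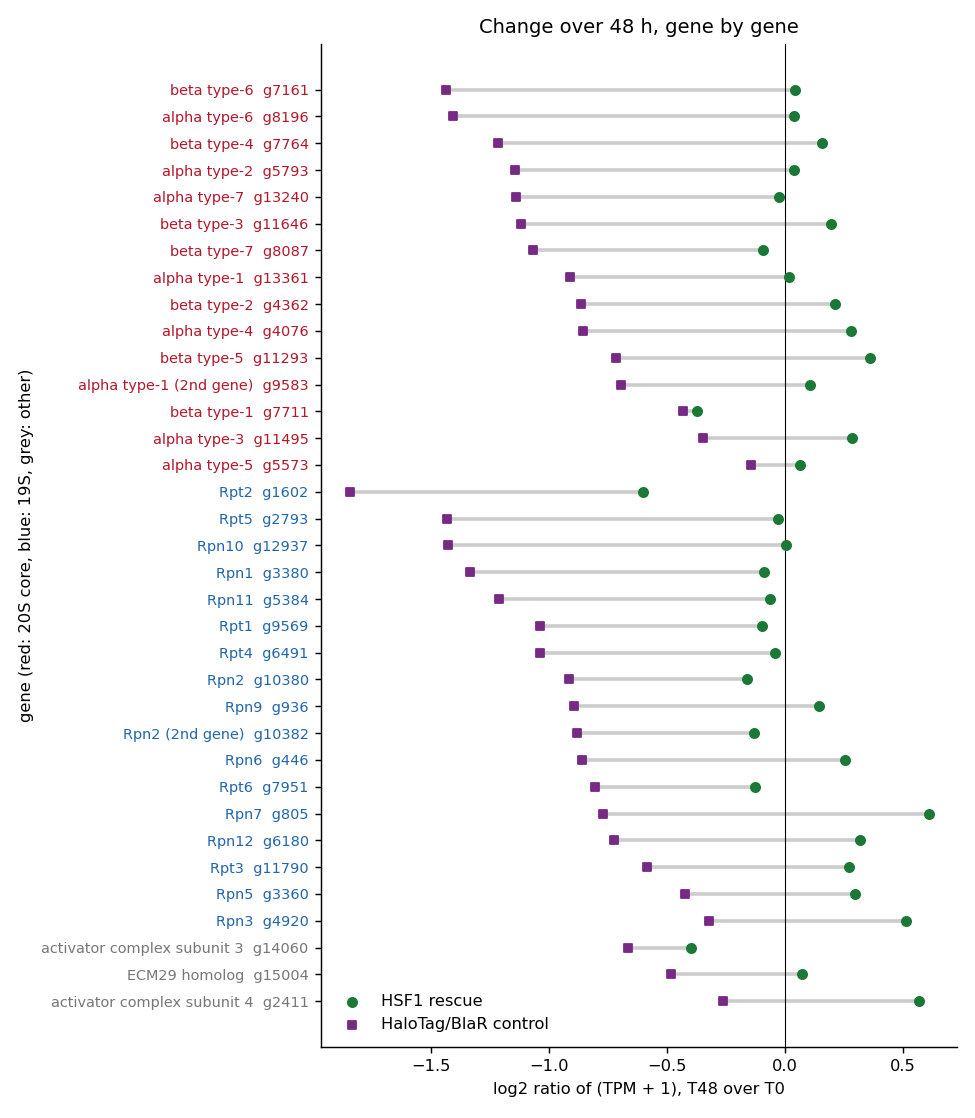
Log2 ratio of (TPM + 1) at T48 over T0 for each of the 35 expressed members, as green circles for HSF1-rescue cells and purple squares for control cells, joined by a grey line. Every circle lies to the right of its square, and the lines are shortest for beta type-1 (0.06) and alpha type-5 (0.21).

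Set against each other at T48, HSF1-rescue cells had more proteasome transcripts than control cells in 14 of 15 core genes and 17 of 17 19S genes, beside 29.9% of all 8454 genes. The median log2 ratio was 0.82 in the core and 0.78 in the 19S particle, beside -0.34 over all genes. Members that were 2-fold higher numbered 10 of 35, beside 5.83% of all genes: alpha types 2 and 6, beta types 3, 4 and 6, Rpt2, Rpn1, Rpn7, Rpn10 and, named here for its value, Rpn6 (*g446*). On the scaled values 25 of 35 were 2-fold higher, beside 9.64%, and all 15 core genes were then higher (49.8% of all genes). At T0 the same lines differed little and the other way. All 15 core genes and 14 of 17 19S genes were lower in HSF1-rescue cells, beside 58.9% of all 7841 genes, with medians of -0.22 and -0.28 beside -0.09 (14 and 13 genes lower after scaling, where 52.6% of all genes were), and no member was 2-fold different (4.57% of all genes were 2-fold higher and 2.41% 2-fold lower).

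Alpha and beta rings differed slightly in these comparisons. At T48 the median ratio of HSF1-rescue over control cells was 0.66 in the 8 alpha genes, with a range of -0.02 to 1.06, and 0.94 in the 7 beta genes, with a range of 0.02 to 1.28. At T0 it was -0.34 in the alpha genes, with a range of -0.38 to -0.17, and -0.16 in the beta genes, with a range of -0.22 to -0.03. Among the 19S genes the ATPases had a median of 0.66 and the non-ATPases of 0.85 at T48. The ranges overlapped in each of these pairs.

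Knockout cells at T0 held the highest level of the 8 groups in all 15 core genes and in 12 of 17 19S genes, beside 14.8% of the 8064 expressed genes. After scaling the counts were 15 of 15 and 10 of 17, beside 15.6%. Against WT at T0 the median log2 ratio was 1.54 in the core and 1.32 in the 19S particle, beside 0.29 over all genes, and 29 of 35 members were 2-fold higher, beside 13.4% of all 7847 genes. Scaled, the medians were 1.23 and 1.02 and the count 20 of 35, beside 7.16%. Rpn10 (2.10), beta type-6 (2.09), beta type-4 (2.07) and alpha type-2 (2.01) had ratios over 2. Alpha type-5 was the only core gene under 1 (0.98), and the lowest 19S gene was the Rpn2 gene *g10380* (0.79). ECM29 (0.03) and activator subunit 4 (0.27) differed little, alongside 1.04 for activator subunit 3.

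WT at T0 was below all other lines at that time in 15 of 15 core and 17 of 17 19S genes, beside 51.9% of the expressed genes, and after scaling as well (33.6%). The order knockout, control, HSF1-rescue and WT, from high to low, held in 15 of 15 core genes and 13 of 17 19S genes at T0, beside 19.1% of the expressed genes, and in 14 and 12 after scaling, beside 11.0%. Such an order has no replicate check, and it was chosen after the values had been seen. It puts HSF1-rescue cells between the lines without HSF1 and WT, with core sums of 5192 TPM in HSF1-rescue cells and 2531 TPM in WT. At T48 HSF1-rescue cells were the highest line in 13 of 15 core and 17 of 17 19S genes, beside 17.8% of the expressed genes, and in all 32 after scaling, beside 35.2%.

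At T48 the core and the 19S particle parted between knockout cells and WT. All 15 core genes were higher in knockout cells, with a median of 0.44 and a range of 0.18 to 1.01, whereas 8 of 17 19S genes were higher, with a median of -0.01 and a range of -0.22 to 0.62, beside 54.5% higher and a median of 0.06 over all 8596 genes. After scaling the medians were 0.39 and -0.06, with the same counts higher (50.9% of all genes). Only alpha type-5 (1.01) was 2-fold higher, beside 4.32% of all genes, and after scaling none was, beside 3.73%. The ratios of single 19S genes ran from -0.22 for Rpt5 to 0.62 for Rpt3, so the 2 particles overlapped. Without both Rpn2 genes the 19S median was 0.12.

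**Figure D4:**
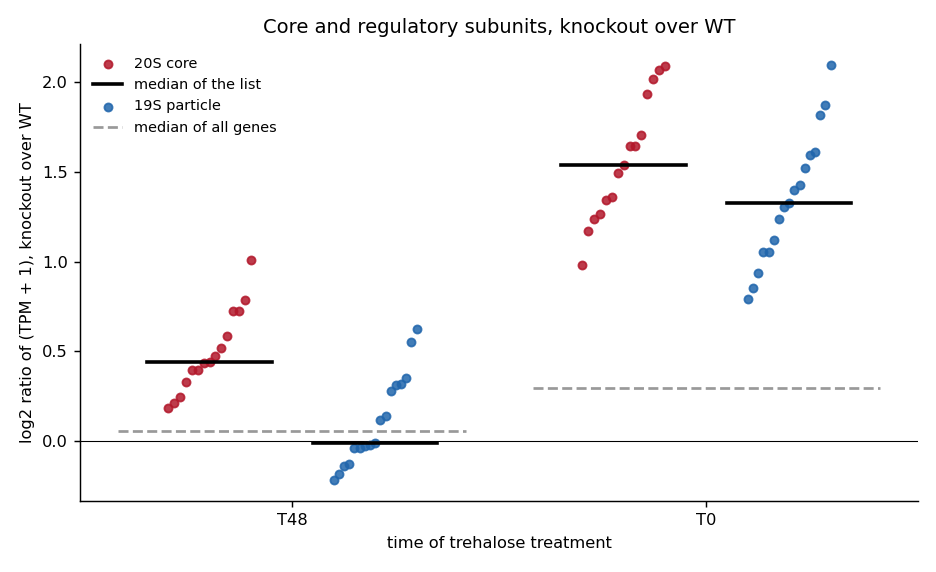
Log2 ratio of (TPM + 1) of knockout cells over WT at T48 and at T0, with 1 point a gene in red for the core and in blue for the 19S particle, black bars at the medians and dashed lines at the median over all genes. At T48 every core gene lies above 0 and 9 of 17 19S genes lie below it, and at T0 all 32 genes lie at 0.79 or above.

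The core and 19S levels were also set against each other within each group. The 19S values leave out Rpn13 and Rpn8, which had 215 and 85.6 TPM in HSF1-rescue cells at T48. They include both Rpn2 gene models, which may be pieces of a single gene. The core sum was 1.80 times the 19S sum at T48 and 1.75 times at T0 in HSF1-rescue cells, and 1.86 and 1.75 times in control cells. It was 2.00 and 1.96 times in knockout cells and 1.55 and 1.72 times in WT. The median of the core genes was 1.88 and 2.01 times that of the 19S genes in HSF1-rescue cells and 2.63 and 2.12 times in control cells, and it was 2.51 and 2.69 times in knockout cells and 1.96 and 2.10 times in WT, so that in HSF1-rescue and in knockout cells the ratio of medians and the ratio of sums had the opposite order between the times. Within the core, the alpha sum was 0.803 of the beta sum at T48 and 0.798 at T0 in HSF1-rescue cells, 0.922 and 0.883 in control cells, 0.864 and 0.868 in knockout cells and 0.863 and 0.891 in WT. Within the 19S particle the ATPase sum was smaller relative to the non-ATPase sum at T48 than at T0 in every line, at 0.591 and 0.755 in HSF1-rescue cells, 0.641 and 0.759 in control cells, 0.646 and 0.812 in knockout cells and 0.592 and 0.656 in WT. Without Rpt2 the same ratios were 0.422 and 0.467, 0.520 and 0.528, 0.514 and 0.560, and 0.448 and 0.489, in that order of lines.

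The members were also looked up among the predicted HSEs of the table, which come from a motif search (FIMO) of 1000 bp around each start site. A predicted HSE was listed for 9 of 37 members, 24.3% with an exact 95% binomial interval of 11.8% to 41.2% for counting error, beside 27.6% of all 17782 genes. It was listed for 5 of 16 core genes and 4 of 17 19S genes. Of the protein folding genes, which include the known HSF1 targets among the chaperones, 25 of 45 had one (55.6%). The motif matrices were those of human HSF1, HSF2 and HSF4 and of yeast HSF1. Without the short yeast matrix 5 of 37 members were left (13.5%, beside 19.1% of all genes). At a match threshold of 1e-05 in place of 0.0001 there was no member, which allows a share of up to 8.11%, beside 2.63% of all genes. The first version of the human HSF1 matrix (MA0486.1) matched 0 of 37 members, which allows a share of up to 8.11%, beside 6.81% of all genes.

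The 5 sites of 13 bases that the longer matrices matched are shown because all of them hold the core of an HSE, GAA and its reverse complement TTC in 1 of the arrangements TTCNNGAA and GAANNTTC, as do 59% of the 4802 sites of these matrices over all genes. They are printed 5′ to 3′ on the strand of the gene, in the coordinates of the deposited table (assembly Pv_5.2), with GAA and TTC in capitals.
alpha type-7, g13240, chr3:28737135-28737147, minus strand: atcaaGAAttTTC
alpha type-5, g5573, chr2:10348783-10348795, minus strand: TTCgaGAAcactt
beta type-1, g7711, chr2:25415280-25415292, minus strand: TTCtaGAAtaatg
beta type-7, g8087, chr2:28534909-28534921, plus strand: tgcgaGAAaaTTC
Rpn3, g4920, chr2:5964818-5964830, minus strand: TTCgaGAAcatgt

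The site of alpha type-7 lay 178 to 166 bases before the start site and that of beta type-1 326 to 314 bases before it. The sites of beta type-7 (390 to 402 bases) and Rpn3 (226 to 238 bases) lay after the start site, within the gene. Alpha type-5 had 2 annotated start sites, and its site lay 411 to 399 bases before the one and 212 to 224 bases after the other. The 4 other members with a predicted HSE matched the yeast matrix alone, with 8 bases and a single GAA each: beta type-5 had atgGAAca, and Rpt2, Rpt6 (*g7951*) and Rpn9 (*g936*) had atgGAAga. The members with a 13-base site did not stand together in expression. Their differences between the change in HSF1-rescue and in control cells were 1.11 for alpha type-7, 0.98 for beta type-7, 0.83 for Rpn3, 0.21 for alpha type-5 and 0.06 for beta type-1, the last 2 being the lowest of all core genes. A match is a string of letters and no measured binding, and no site of a match was tested here.

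The members lay on chromosomes 1 (9 of 37, or 24.3%), 2 (14, or 37.8%) and 3 (13, or 35.1%), beside 23.6%, 27.5% and 29.6% of all genes in that order, with ECM29 alone on chromosome 4, which holds 18.1% of all genes. Of the 16 core genes 9 were on chromosome 2, 6 on chromosome 3 and 1 on chromosome 1, while 7 of the 17 19S genes were on chromosome 1.

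Other gene groups of protein turnover and synthesis were set beside the members. Genes with ubiquitin in their description (101 with a value, among them conjugating enzymes, ligases and deubiquitinases) had a median difference between the changes in HSF1-rescue and control cells of 0.02, with 55 of 101 positive, beside 1.04 for the members and -0.23 for all genes. Protein folding genes had a median of 0.21, with 24 of 42 positive, and ribosome genes a median of -0.23, with 24 of 122 positive. Between the changes in knockout cells and WT, protein folding genes were closer to the members, with a median difference of -0.92 and 37 of 43 negative. The members had -1.09 there, with 33 of 35 negative, beside -0.22 for all genes, of which 61.3% were negative. Ubiquitin genes had -0.25 (65 of 101 negative) and ribosome genes -0.08 (72 of 122 negative). The ratio of T48 over T0 in control cells had a median of 0.28 for ubiquitin genes, -0.37 for protein folding genes and -0.49 for ribosome genes, beside -0.88 for the 35 proteasome members and 0.35 for all genes. In HSF1-rescue cells the same medians were 0.28, -0.04 and -0.66, beside 0.04 for the members and 0.08 for all genes, and in WT they were 0.60, 0.48 and -0.45, beside 0.23 for the members and 0.53 for all genes. In knockout cells over WT at T0 the medians were 0.23 for ubiquitin genes, 0.73 for protein folding genes and 0.15 for ribosome genes, beside 1.36 for the members and 0.29 for all genes.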

How the data were processed

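Per the methods of the study, trimming was done with Trimmomatic, alignment to the Pv_5.2 assembly with Hisat2, duplicate marking with Picard and counting with HTSeq 0.6.0, which dropped reads of ambiguous origin. The expression signal of a gene, as deposited, is the mean TPM of 3 libraries. The table repeats a gene for each HSE over 25248 lines, and each gene was taken once. The score deposited with an HSE is the value FIMO gave to the match in 1000 bp around the start site. Columns of the authors' clusters, which come from their own comparisons, were not used. The depth of the libraries is not kept in TPM and was not analysed here.

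Limma had been planned for a table of libraries, but the columns hold means of groups, so groups were compared without a test or an SD. From the means were computed log2 ratios with a pseudocount of 1, medians and counts over lists, and median-of-ratios factors over the 8873 genes above 0 in all groups, with Python 3.11.15, numpy 2.4.6, pandas 2.3.3 and scipy 1.17.1. The computation of ratios and counts was tested on simulated data. The binomial interval is exact (Clopper-Pearson), and the limit of a count of 0 is 3 counts.

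Members and lists were chosen with earlier results of these data known. Named in full were all core genes and all members outside both particles, and of the 19S genes the most and least abundant and those with the highest and lowest ratio between HSF1-rescue and control cells at T48 and of T48 over T0 in each line. Subunit names are those of the BLAST descriptions and domain entries. Alternatives were pseudocounts of 0.1 and 0.01, no minimum and a minimum of 5 TPM, division by the median-of-ratios factors, TPM with the 10 most abundant genes left out, membership by the first BLAST hit or the ontology term alone and, for HSEs, other motifs and a threshold of 1e-05. Added after the data were seen were the difference between the changes of HSF1-rescue and control cells, 19S genes named by domain alone, and the lists without second core genes or without both Rpn2 genes.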

Additional observations from a re-analysis of the deposited data

How the results depend on the processing

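No paired analysis was possible because the deposited columns are group means with no libraries, and leaving out a replicate could not be run either. Of 207 alternative values, 25 moved and 2 changed direction by more than 0.1 on the log2 scale or 1.5 times a count. Scaling turned the medians of T48 over T0 in WT to -0.40 in the core and -0.33 in the 19S particle, and medians close to 0 (T48 over T0 in HSF1-rescue cells, and the 19S particle of knockout cells over WT at T48) took either sign across settings. Scaling also moved the core and 19S medians to -1.29 and -1.27 for T48 over T0 in control cells, to -1.27 and -1.23 in knockout cells, to 1.18 and 1.14 for HSF1-rescue over control cells at T48 and to 1.23 and 1.02 for knockout cells over WT at T0. With scaling, 27 members were past 2-fold for T48 over T0 in control cells, 22 in knockout cells, 25 for HSF1-rescue over control cells at T48 and 0 for knockout cells over WT at T48. TPM without the 10 most abundant genes gave 1.43 and 1.22 for knockout cells over WT at T0 and 0 members past 2-fold at T48. With members taken from the first BLAST hit or the ontology term alone, the members past 2-fold were 9 for T48 over T0 in control cells, 6 for HSF1-rescue over control cells at T48 and 17 for knockout cells over WT at T0, out of 20, and the 19S median for T48 over T0 in WT was 0.41 over 5 genes. With 19S genes named by domain alone, chosen after seeing the data, the 19S median was 0.14 for T48 over T0 in HSF1-rescue cells and 0.12 for knockout cells over WT at T48, and without both Rpn2 genes the comparison of knockout cells and WT at T48 gave 0.12. At the stricter threshold 0% of members had an HSE, which allows a share of up to 8.11%. All these settings kept the core and 19S medians of control and knockout cells below 0 over 48 h and those of HSF1-rescue over control cells above 0 at T48.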

Other observations

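In all, 11 genes carried a proteasome domain but neither the ontology term nor the word in their description, and were looked up after the values of the members had been seen. Values are given for T48 and then T0. The maturation factor Ump1 (*g12397*), which is enclosed in the core during assembly in yeast, had 221 and 212 TPM in HSF1-rescue cells, against 77.4 and 224 TPM in control cells, and 107 and 307 TPM in knockout cells, against 84.1 and 72.3 TPM in WT cells. The ubiquitin receptor Rpn13 (*g2060*) had 215 and 195 TPM in HSF1-rescue cells, against 88.4 and 195 TPM in control cells, and 103 and 252 TPM in knockout cells, against 92.2 and 79.9 TPM in WT cells. Both had their highest level in knockout cells at T0 and, at T48, the lowest in control cells. Cut8 (*g7272*), which tethers the proteasome to the nuclear envelope in fission yeast, had 19.4 and 41.2 TPM in HSF1-rescue cells, against 8.94 and 56.4 TPM in control cells, and 10.1 and 59.2 TPM in knockout cells, against 13.3 and 16.3 TPM in WT cells. The Rpn8 gene (*g3693*), a lid subunit that pairs with Rpn11, had 85.6 and 66.2 TPM in HSF1-rescue cells, against 90.4 and 77.9 TPM in control cells, and 99.7 and 79.9 TPM in knockout cells, against 70.8 and 50.2 TPM in WT cells. PI31 (*g10348*), a regulator that binds the core, had 51.5 and 36.9 TPM in HSF1-rescue cells, against 72.3 and 39.9 TPM in control cells, and 67.3 and 40.9 TPM in knockout cells, against 61.2 and 29.8 TPM in WT cells, with a higher level at T48 than at T0 in all 4 lines. As deposited, the same held for Rpn8 and for the genes with domains of non-ATPase subunits 5 (*g620*) and 9 (*g1155*). Log2 ratios of T48 over T0 in control cells were 0.84 for PI31, 0.21 for Rpn8, 0.38 for *g620* and 0.34 for *g1155*. In knockout cells *g1155* was nearly level (0.01). After scaling, PI31 and *g620* were still higher at T48 in all 4 lines, *g620* only barely so in control cells. Rpn8 was then higher at T48 in HSF1-rescue cells alone, and *g1155* in HSF1-rescue cells and WT alone. Every other expressed gene of the 11 had a negative ratio in control and knockout cells.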
